A study of Rattus norvegicus with 6 samples.

Results

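Transcripts of the pentose phosphate pathway and of 2 further cytosolic enzymes that make NADPH were measured in the kidneys of male Sprague Dawley rats. The members were chosen by name as Tkt, Taldo1, Pgls, Pgd, H6pd, Rpia, Rpe, Me1 and Idh1, and 8 of these 9 genes had a row among the 17051 genes listed; Pgd was not analysed here. The AL group comprised rats 61, 71 and 88 (*n* = 3), which ate standard powder chow ad libitum. The HD group comprised rats 64, 67 and 69 (*n* = 3), which ate chow mixed with amino acids in the proportions of hemoglobin for a week. The comparison asked whether the higher level of Tkt RNA in the HD group was shared by the other enzymes. Tkt was singled out with its values known.

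The pentose phosphate pathway draws on glucose-6-phosphate and has an oxidative and a non-oxidative arm. The oxidative arm reduces NADP to NADPH and ends in ribulose-5-phosphate. An isomerase and an epimerase turn this sugar into ribose-5-phosphate and xylulose-5-phosphate, and transketolase and transaldolase then exchange carbon units between sugars, which returns them to glycolysis or supplies ribose for nucleotides. NADPH serves lipid synthesis and the reduction of glutathione and thioredoxin, and cells also obtain it in the cytosol from malic enzyme and isocitrate dehydrogenase.

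Total estimated counts ranged from 12499945 to 30466461 per rat, with the lowest and the highest total both in the HD group. Levels are given as CPM (library-scaled counts, after TMM), which compare a gene between rats, or as TPM, which adjust for transcript length and compare genes with each other. For 11553 tested genes the diets were compared by the quasi-likelihood test of edgeR, with Benjamini-Hochberg adjustment over all of them and a threshold of 0.05. In whole kidney RNA, fewer cells of a type and less RNA per cell cannot be told apart. The labels do not give litters or cages, so the *P* values measure the spread between these rats. As markers of kidney cells, all 5 thick ascending limb genes and 10 of 11 proximal tubule genes were above the minimum count for testing. Of 6 adrenal cortex markers, 5 were below it.

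Tkt, on chromosome 16 of rn5 from 6543529 to 6568461, was listed as 1 transcript of 15 exons and 2082 bases on the plus strand. Transketolase, its product, is a thiamine-dependent enzyme that moves carbon pairs between sugars in the non-oxidative arm. In the AL group Tkt was at 245 CPM in rat 61, 197 in rat 71 and 209 in rat 88. In the HD group it was at 323 CPM in rat 64, 349 in rat 67 and 385 in rat 69. All rats of the HD group were above all rats of the AL group. Rat 64, which had the smallest library of the 6, was among those above. The means were 217 ± 24.8 and 352 ± 31.0 CPM (SD, *n* = 3 each), a ratio of 1.62. On the log2 scale the fold change was 0.70 (standard error 0.13, 95% confidence interval 0.39 to 1.00), with an unadjusted *P* value of 0.000882 and an adjusted *P* value of 0.334 from edgeR, so Tkt did not pass the threshold. None of the 11553 tested genes passed it with edgeR. By *P* value Tkt took rank 30 among all tested genes.

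With DESeq2 the adjusted *P* value of Tkt was 0.000627, and Tkt was the only 1 of the 8 enzymes below 0.05. Of all genes with an adjusted *P* value from DESeq2, 1.58% were past that threshold, and 0.806% were past it as higher in the HD group. An exact permutation test (two-sided) gave *P* = 0.1 for Tkt, the smallest value that 3 rats against 3 can give, and 0.8 after adjustment over the 8 enzymes. The log2 fold change of Tkt stayed between 0.63 and 0.79 whichever rat was left out. The interval that RSEM gives for its own read assignment reached at most 3.51% to either side of the Tkt estimate. The coefficient of variation between rats was 11.4% in AL rats and 8.82% in HD rats. The level of the interval is not given in the sources used here, so its width and a coefficient of variation are unlike measures. Of the paralogs of Tkt, Tktl1 and Tktl2 had 0 counts in every rat, which allows up to 3 counts in each library and covers counting error only.

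**Figure D1:**
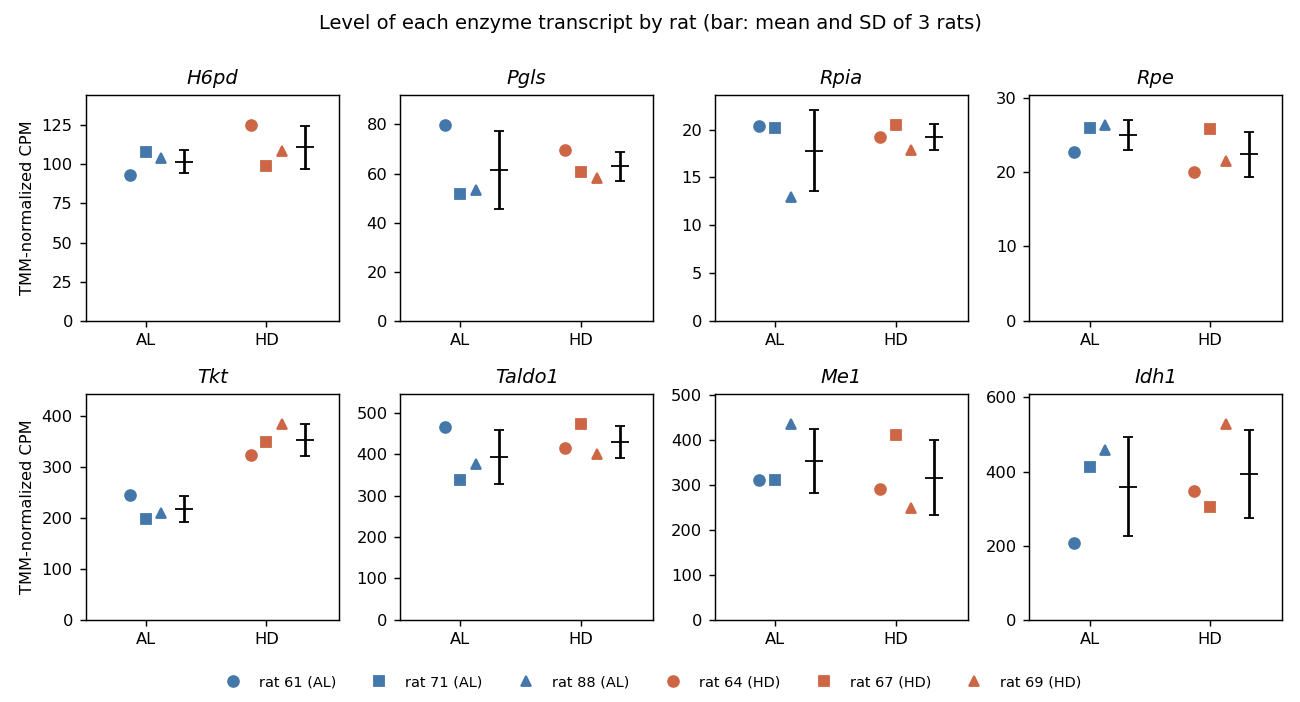
Level of the 8 enzymes in each rat as TMM-normalized CPM, with every axis starting at 0; points are single rats (blue AL, orange HD) and bars give the mean and SD of 3 rats. Tkt is the panel in which the 3 HD rats (323 to 385 CPM) lie above the 3 AL rats (197 to 245 CPM), while the groups overlap in the other 7 panels.

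Transaldolase, encoded by Taldo1, works beside transketolase in the non-oxidative arm and moves 3-carbon units. Taldo1 lies on chromosome 1 of rn5 from 221292669 to 221302999, with 8 exons. Its level was 466, 337 and 376 CPM in rats 61, 71 and 88 of the AL group, and 416, 474 and 400.4 CPM in rats 64, 67 and 69 of the HD group. The groups overlapped, because rat 61 was second only to rat 67. Means of 393 ± 66.0 and 430.0 ± 38.8 CPM (SD, *n* = 3 each) gave a log2 fold change of 0.13 (95% confidence interval -0.22 to 0.49, adjusted *P* = 0.832 from edgeR). In every library the Taldo1 count was above the Tkt count, but less so in the HD group. The log2 ratio of Tkt to Taldo1 counts was -0.93, -0.78 and -0.84 in rats 61, 71 and 88, against -0.37, -0.44 and -0.06 in rats 64, 67 and 69.

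The isomerase and the epimerase were the least abundant enzymes of the 8. Rpia, on chromosome 4 from 163347716 to 163373352, encodes ribose-5-phosphate isomerase, and Rpe, on chromosome 9 from 73595052 to 73615031, encodes ribulose-phosphate 3-epimerase. Rpia was at 20.4, 20.1 and 12.9 CPM in the AL rats 61, 71 and 88 and at 19.3, 20.5 and 17.9 CPM in the HD rats 64, 67 and 69. The HD rats lay within the range of the AL group except for rat 67, which was above it by less than the spread, and the low value of rat 88 set the mean of the AL group. For Rpia the log2 fold change was 0.11 (95% confidence interval -0.36 to 0.58, adjusted *P* = 0.901 from edgeR). Rpe was at 22.7, 25.9 and 26.4 CPM in the same AL rats and at 19.9, 25.8 and 21.5 CPM in the HD rats. The HD rats 64 and 69 were below every AL rat, and rat 67 lay between AL rats. For Rpe it was -0.16 (95% confidence interval -0.49 to 0.18, adjusted *P* = 0.767 from edgeR). These counts were small, between 195 and 673 per library, and the RSEM interval reached 14.0% to either side for Rpia and 12.7% for Rpe. The coefficient of variation of Rpia in the HD group, 6.93%, was below its smallest RSEM interval of 8.28%.

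The oxidative arm was represented by Pgls and H6pd. Pgls encodes 6-phosphogluconolactonase, which opens the lactone made in the first step, and lies on chromosome 16 from 19880872 to 19886358. It was at 80.0, 51.6 and 53.1 CPM in the AL rats 61, 71 and 88 and at 69.7, 60.8 and 58.3 CPM in the HD rats 64, 67 and 69. Rat 61 was the highest of the 6 rats, and the other AL rats were the lowest. The log2 fold change of 0.03 (95% confidence interval -0.40 to 0.47, adjusted *P* = 0.976 from edgeR) changed sign with library size alone, where it was -0.037. H6pd, on chromosome 5 from 170640289 to 170671849, encodes hexose-6-phosphate dehydrogenase, an enzyme of the endoplasmic reticulum that carries out the first steps of the oxidative arm there. H6pd was at 93.4, 108 and 104 CPM in the AL rats 61, 71 and 88 and at 126, 98.7 and 108 CPM in the HD rats 64, 67 and 69. Rats 64 and 69 were above every AL rat, the latter by less than the spread. H6pd varied least among the AL rats, with a coefficient of variation of 7.49%, and the HD rat 67 lay within the AL range. The difference was 0.12 on the log2 scale (95% confidence interval -0.17 to 0.42, adjusted *P* = 0.799 from edgeR).

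Me1 and Idh1 encode other cytosolic sources of NADPH, and within the HD group they had the largest coefficients of variation of the 8 enzymes, 26.6% and 30.2%. Me1, on chromosome 8 from 93769078 to 93863611, encodes cytosolic malic enzyme, which turns malate into pyruvate. The AL rats 61, 71 and 88 had 311, 312 and 436 CPM of Me1, and the HD rats 64, 67 and 69 had 289, 410.1 and 248 CPM. Rats 64 and 69 were below every AL rat, and rat 67 was not. Between the groups the log2 fold change was -0.16 (95% confidence interval -0.68 to 0.36, adjusted *P* = 0.863 from edgeR), and it was 0.027 without rat 88.

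Idh1, on chromosome 9 from 70668353 to 70689596, encodes the cytosolic and peroxisomal isocitrate dehydrogenase that makes 2-oxoglutarate. The AL rats 61, 71 and 88 had 207, 413 and 458 CPM of Idh1, and the HD rats 64, 67 and 69 had 348, 305 and 529 CPM. The lowest and the highest AL rats differed 2.21-fold, and over all rats the range was 2.55-fold, the widest of the 8 enzymes. The log2 fold change of 0.13 (95% confidence interval -0.62 to 0.89, adjusted *P* = 0.935 from edgeR) was -0.14 without rat 61 and -0.13 without rat 69. For Idh1 the interval reaches past the log2 fold change of Tkt, 0.70, so a difference of that size lies within it. The intervals of Taldo1, Pgls, H6pd and Rpia end below 0.70, at 0.49, 0.47, 0.42 and 0.58. They still overlap with that of Tkt, which starts at 0.39, whereas those of Rpe (0.18) and Me1 (0.36) end below it. The mitochondrial counterpart Idh2 was at 603, 569 and 542 CPM in rats 61, 71 and 88, and did not share the low level of Idh1 in rat 61. In the HD group Idh2 was at 520.1, 512 and 675 CPM in rats 64, 67 and 69, with a difference of -0.0065 on the log2 scale (95% confidence interval -0.34 to 0.33, adjusted *P* = 0.992 from edgeR).

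**Figure D2:**
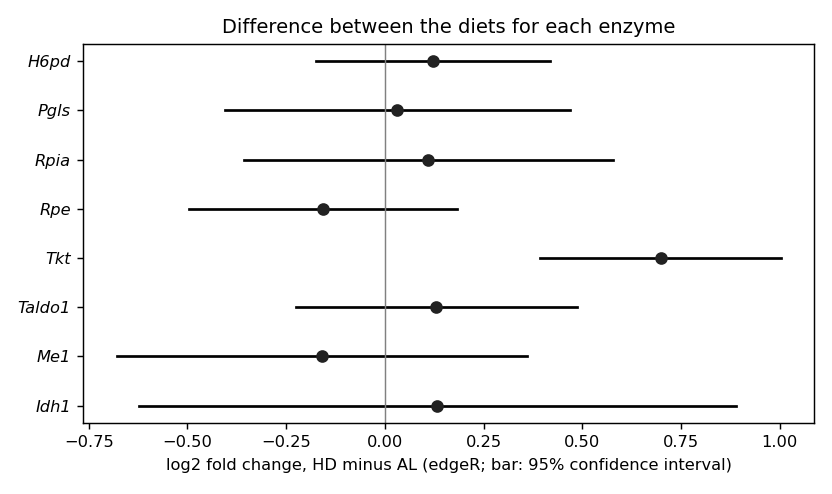
Log2 fold change of each enzyme between the HD and AL groups on the horizontal axis, with points for the edgeR estimate and bars for the 95% confidence interval. The interval of Tkt runs from 0.39 to 1.00, and the intervals of the other 7 enzymes include 0.

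Of the 8 enzymes, 6 had a log2 fold change above 0 and 2 had one below 0, and with library size alone 5 were above 0. Among all tested genes 51.3% were above 0 and 48.7% below, and with library size alone 4220 of 11553 were above 0. None of the 8 passed the adjusted threshold with edgeR, and neither did any other of the 11553 tested genes. At an unadjusted *P* value below 0.05, 1 of the 8 was found, Tkt, which had been chosen for its difference; the share among all genes was 4.66% for genes higher in the HD group and 5.94% for genes lower in it. Complete separation of the groups was likewise found in 1 of the 8, with the HD group above, against 7.25% of all tested genes, and none was separated with the HD group below (7.01% of all). The other 7 enzymes had log2 fold changes between -0.16 and 0.13, with a median of 0.11, and adjusted *P* values between 0.767 and 0.976 from edgeR. Their adjusted *P* values from DESeq2 lay between 0.895 and 0.994. The median over the 8 was 0.12, and over all tested genes it was 0.0067.

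To compare Tkt with the other enzymes without any library scaling, the log2 ratio of its count to theirs was taken in each rat. The ratio was higher in the HD group for all 7 enzymes, by 0.56 for Taldo1, 0.64 for Pgls, 0.58 for H6pd, 0.56 for Rpia, 0.86 for Rpe, 0.87 for Me1 and 0.53 for Idh1. Since Tkt enters every ratio, these are 7 views of the same Tkt counts. Tkt was singled out with its values known. Higher and separated ratios to enzymes that differ little therefore follow largely from that choice, and the ratios are given as a description. All HD rats were above all AL rats in the ratios to Taldo1, Pgls, Rpia, Rpe and Me1 (two-sided exact permutation test, *P* = 0.1 each, 0.14 after adjustment over 7 ratios). In the ratio to H6pd, rat 61 of the AL group (1.39) was above rat 64 of the HD group (1.36), and the exact permutation test gave *P* = 0.2. In the ratio to Idh1, rat 61 (0.24) was above every HD rat (-0.11, 0.19 and -0.46 in rats 64, 67 and 69), and the exact permutation test gave *P* = 0.4. No ratio could have passed the threshold with 3 rats in each group.

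**Figure D3:**
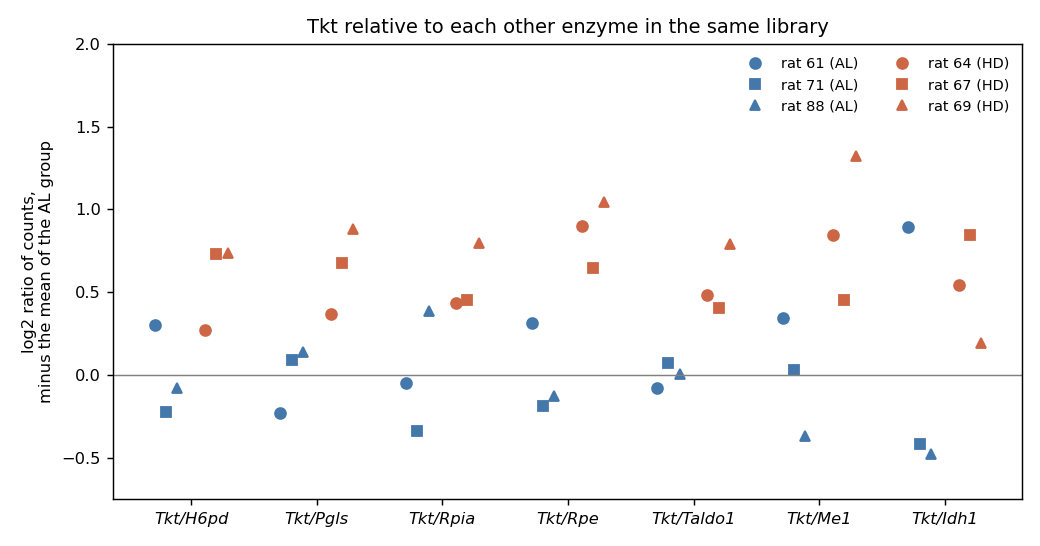
Log2 ratio of the Tkt count to the count of each other enzyme in the same library, minus the mean of the AL group, with a point for each rat (blue AL, orange HD). The HD points lie above all AL points for Rpia, Rpe, Pgls, Taldo1 and Me1, and rat 61 overlaps with them for H6pd and Idh1.

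The rats did not share an order across the enzymes. Rat 61 was the highest for Pgls and the lowest for H6pd and Idh1. Rat 71 was the lowest for Tkt, Taldo1 and Pgls, and rat 88 was the highest for Rpe and Me1. In the HD group, rat 69 was the highest for Tkt and Idh1 and the lowest for Me1, and rat 67 was the highest for Taldo1 and Rpia. Me1 and Idh1 stood apart in rat 69, at -0.40 and 0.55 on the log2 scale from their means over 6 rats. Without Tkt, the median deviation of the other 7 enzymes lay between -0.053 and 0.032 in the AL rats and between -0.033 and 0.13 in the HD rats.

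**Figure D4:**
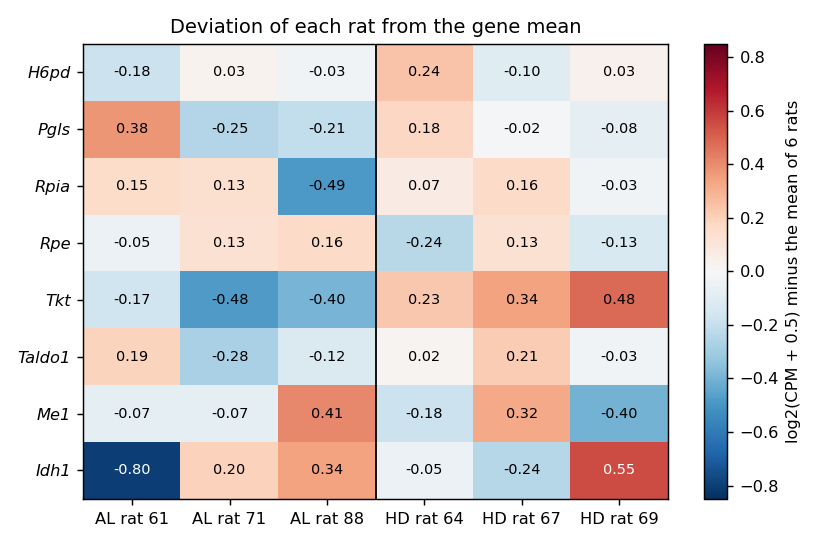
Deviation of log2(CPM + 0.5) from the mean of the 6 rats for each enzyme (rows) and rat (columns), with red above and blue below the mean; the line divides the AL from the HD group. In the row of Tkt the AL rats are at -0.48 to -0.17 and the HD rats at 0.23 to 0.48, and Idh1 holds the lowest cell, -0.80 in rat 61.

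Per transcript length, Taldo1 was the most abundant of the 8 enzymes, at 544 ± 34.7 TPM (SD over 6 rats of both groups). Idh1 followed at 349 ± 123 TPM, Tkt at 212 ± 55.6 TPM and Me1 at 173 ± 38.7 TPM. Ranges of neighbours in this order overlapped, but within each rat Taldo1 was above Idh1 and Idh1 above Tkt, in 6 of 6 rats. Tkt was above Me1 in 4 of 6 rats, and the exceptions were rats 71 and 88 of the AL group. After a gap that no range crossed came Pgls at 40.5 ± 4.73 TPM and H6pd at 34.7 ± 4.60 TPM, in this order in 5 of 6 rats. Rpe, at 17.9 ± 2.84 TPM, and Rpia, at 16.0 ± 2.50 TPM, came last and were in this order in 4 of 6 rats. The oxidative enzymes and the isomerase and epimerase were thus present at lower TPM than both transferases in every rat. In TPM, Tkt was at 166 ± 3.72 in AL rats and 258 ± 36.4 in HD rats (SD, *n* = 3 each).

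Sequences upstream of the gene starts were taken from RefSeq (build GRCr8) to set Tkt beside enzymes whose groups overlapped. Windows of 250 bases were found for 8 of the 9 genes, all but Pgls. The following 4 are shown because they belong to the transferases Tkt and Taldo1 and to the cytosolic NADPH enzymes Me1 and Idh1, 5′ to 3′ on the strand of the gene, with matches to the searched motifs in capitals. They lie at chr16:5729982-5730231 (plus strand) for Tkt, chr1:205922946-205923195 (plus strand) for Taldo1, chr8:96540245-96540494 (minus strand) for Me1 and chr9:74049475-74049724 (minus strand) for Idh1.
Tkt: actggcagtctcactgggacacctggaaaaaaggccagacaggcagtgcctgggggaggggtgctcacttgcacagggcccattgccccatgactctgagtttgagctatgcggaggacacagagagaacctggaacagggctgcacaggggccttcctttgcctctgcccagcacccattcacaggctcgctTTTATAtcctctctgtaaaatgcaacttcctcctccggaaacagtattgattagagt
Taldo1: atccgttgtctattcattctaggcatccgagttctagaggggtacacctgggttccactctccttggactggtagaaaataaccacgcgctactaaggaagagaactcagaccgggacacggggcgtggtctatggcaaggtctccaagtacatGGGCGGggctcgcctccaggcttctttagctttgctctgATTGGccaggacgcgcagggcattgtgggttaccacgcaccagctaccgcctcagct
Me1: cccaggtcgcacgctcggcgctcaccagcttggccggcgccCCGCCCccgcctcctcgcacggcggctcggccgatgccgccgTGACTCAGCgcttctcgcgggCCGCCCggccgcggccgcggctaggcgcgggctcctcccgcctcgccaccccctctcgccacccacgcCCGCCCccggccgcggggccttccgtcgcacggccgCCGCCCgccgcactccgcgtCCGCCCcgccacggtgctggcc
Idh1: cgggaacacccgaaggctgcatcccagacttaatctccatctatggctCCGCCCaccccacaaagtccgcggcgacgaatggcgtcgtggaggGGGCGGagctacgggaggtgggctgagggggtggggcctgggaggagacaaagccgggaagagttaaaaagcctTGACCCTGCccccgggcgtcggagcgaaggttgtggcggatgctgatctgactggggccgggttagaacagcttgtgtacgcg
Both strands were searched for 6 motifs, and no matches overlapped in these windows. TGACNNNGC, the core of the antioxidant response element that Nrf2 binds, was matched in Me1 and Idh1, and in 10.1% of all 33469 windows of the same length. The GC box, with the letters GGGCGG, was matched in Taldo1, Me1, Idh1, Rpe and Pgd, and in 30.5% of all windows. In the window of Tkt TATAAA was the only match, on the opposite strand, and it was found in 12.9% of all windows. The letters CCAAT were matched in Taldo1, Rpe and Pgd, and in 34% of all windows. The E-box CACGTG, found in 5.59% of all windows, was matched in none of the 8. TCACNCCAC, a core of the sterol regulatory element found in 0.974% of all windows, was matched in none either. A match describes letters in the window, not binding. Guanine and cytosine made up 54.8% of the window of Tkt, the lowest share of the 8, and 83.2% of that of Me1, the highest.

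Genes that feed, drain or connect the pathway were taken from lists of gene names. The list of neighbours held 19 tested genes, among them glucose-6-phosphate isomerase, phosphofructokinases, phosphoribosyl pyrophosphate synthetases and fructose bisphosphatases. Of these, 15 had a higher and 4 a lower level in HD rats (12 higher with library size alone). The median of their log2 fold changes was 0.15, and 0 passed the adjusted threshold with edgeR or DESeq2. Below an unadjusted *P* value of 0.05, a rule met by 10.6% of all tested genes in either direction, edgeR found 3, all higher in the HD group. The rule was met as higher in the HD group by 4.66% of all tested genes. Shpk, which encodes sedoheptulokinase and phosphorylates the free form of a sugar that transketolase handles, was at 27.7, 25.1 and 25.8 CPM in rats 61, 71 and 88 and at 42.1, 36.2 and 34.1 CPM in rats 64, 67 and 69. Its groups did not overlap (log2 fold change 0.51, adjusted *P* = 0.368 from edgeR). Dcxr, the xylulose reductase that supplies the pathway from the uronate route, was at 173 to 228 CPM in AL rats and 235 to 283 CPM in HD rats (log2 fold change 0.38, adjusted *P* = 0.425 from edgeR). Fbp1, the fructose bisphosphatase of gluconeogenesis, overlapped between the groups, at 594 to 786 CPM in AL rats and 715 to 1071 CPM in HD rats (log2 fold change 0.46, adjusted *P* = 0.460 from edgeR).

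In HD rats 51.3% of all tested genes had a higher level and 48.7% a lower one. With library size alone 4220 of all 11553 tested genes were higher. Of 12 tested genes for other dehydrogenases and NAD kinases, 4 had a higher and 8 a lower level in HD rats. With library size alone 3 of these 12 were higher. The median of their log2 fold changes was -0.027. Aldh1l1, which encodes the cytosolic formyltetrahydrofolate dehydrogenase and yields NADPH, was the only 1 with an unadjusted *P* value below 0.05. That rule was met by 10.6% of all tested genes in either direction. Aldh1l1 was at 180, 157 and 168 CPM in rats 61, 71 and 88 and at 238, 237 and 266 CPM in rats 64, 67 and 69. Rats of the 2 groups did not overlap (log2 fold change 0.55, adjusted *P* = 0.338 from edgeR and 0.00255 from DESeq2). The paralogs Me2 and Me3 of Me1 had log2 fold changes of -0.046 and -0.089 (adjusted *P* = 0.966 and 0.921 from edgeR) and were at most 12.9 and 24.0 TPM in any rat, against at least 133 TPM for Me1.

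Transketolase binds thiamine diphosphate, so genes of thiamine uptake and activation and of other enzymes with this cofactor were examined. Of 5 tested genes of uptake and activation, 4 were higher and 1 was lower, and no unadjusted *P* value was under 0.05. All 8 tested genes for other thiamine-dependent enzymes had log2 fold changes above 0, between 0.13 and 0.47 with a median of 0.18. All 8 were also above 0 with library size alone (median 0.10). Of all tested genes 51.3% were above 0, and 4220 of 11553 with library size alone. An unadjusted *P* value below 0.05 was found by edgeR for 2 of the 8, Ogdh and Dhtkd1, both higher (4.66% of all tested genes). Ogdh, a subunit of the 2-oxoglutarate dehydrogenase complex, was at 223 to 300 CPM in AL rats and 298 to 393 CPM in HD rats. Dhtkd1, the related enzyme of lysine breakdown, was at 184 to 208 and 218 to 271 CPM, without overlap. Their adjusted *P* values from edgeR were 0.406 and 0.409.

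Among the users of NADPH, the list of lipid synthesis held 19 tested genes, 12 higher and 7 lower in the HD group. Of all tested genes 51.3% were higher. With library size alone 9 of the 19 were higher, against 4220 of all 11553 tested genes. With an unadjusted *P* value below 0.05, edgeR found 3 of the 19 higher and 2 lower, against 4.66% and 5.94% of all tested genes. Slc25a1, the mitochondrial citrate carrier, was at 82.8 to 99.0 CPM in AL rats and 113 to 127 CPM in HD rats (log2 fold change 0.40, adjusted *P* = 0.398 from edgeR). Acly had a log2 fold change of 0.58, and Fads2, a fatty acid desaturase, one of 0.80 with overlapping groups. Acacb, an acetyl-CoA carboxylase named after its values were seen, was among the lower ones (log2 fold change -1.02, adjusted *P* = 0.406 from edgeR). Fat cell markers had log2 fold changes above 0 in 5 of 5, and their summed level was 103, 44.9 and 54.6 CPM in rats 61, 71 and 88 and 24.9, 270 and 206 CPM in rats 64, 67 and 69. Rat 64 thus had the lowest sum and the other HD rats the highest. Fasn, the fatty acid synthase, was at 77.9 to 105 CPM in AL rats and at 57.5, 224 and 418 CPM in rats 64, 67 and 69. The desaturase Scd1 was at 107, 5.04 and 33.0 CPM in rats 61, 71 and 88, and at 3.90, 550 and 451 CPM in rats 64, 67 and 69. Both genes, named after their values were seen, had their lowest level in rat 64 and their highest levels in rats 67 and 69. Acly and Slc25a1 were above every AL rat in all HD rats. The part of fat cells in the levels of the lipid genes was not tested.

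The list of redox enzymes held 20 tested genes, 16 higher and 4 lower, and the median of the log2 fold changes was 0.21. Of all tested genes 51.3% were higher. With library size alone 12 of the 20 were higher, against 4220 of all 11553 tested genes. By unadjusted *P* value below 0.05 the list had 6 higher and 3 lower genes, against 4.66% and 5.94% of all tested genes. In the list 0 genes passed the adjusted threshold with edgeR or DESeq2. Nox4, the NADPH oxidase of kidney tubules, was at 15.2 to 18.3 CPM in AL rats and 21.5 to 36.0 CPM in HD rats (log2 fold change 0.83, adjusted *P* = 0.379 from edgeR). Its membrane partner Cyba was at 34.4 to 42.6 and 45.0 to 71.9 CPM, also without overlap (log2 fold change 0.53, adjusted *P* = 0.419 from edgeR). Lower were Ncf1 (log2 fold change -1.04) and Cybb, named after its values were seen (-2.24), which encode parts of the phagocyte oxidase (adjusted *P* = 0.409 and 0.422 from edgeR). Leukocyte markers were also below 0, in 7 of 7, and their part in these genes was not tested. Akr1b1, the aldose reductase that makes sorbitol and is also in the list of inner medulla markers, was at 23.3, 99.0 and 390.0 CPM in rats 61, 71 and 88 and at 23.3 to 35.3 CPM in HD rats. The difference of -2.63 on the log2 scale (adjusted *P* = 0.406 from edgeR) therefore came with a wide spread within the AL group.

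Of 17 tested regulators of these enzymes, 13 were higher and 4 were lower, and of all tested genes 51.3% were higher. With library size alone 7 regulators were higher, against 4220 of all 11553 tested genes. Mlxipl, the glucose-responsive transcription factor ChREBP, was at 112 to 146 CPM in AL rats and 91.0 to 98.8 CPM in HD rats (log2 fold change -0.38, adjusted *P* = 0.406 from edgeR). Bach1, a repressor at antioxidant response elements, was at 7.48 to 10.4 CPM and 12.3 to 21.5 CPM (log2 fold change 0.75, adjusted *P* = 0.409 from edgeR). In both genes the groups did not overlap. They were the only regulators with an unadjusted *P* value below 0.05 from edgeR, 1 higher and 1 lower (4.66% and 5.94% of all tested genes). They were also the only 2 of the 17 with complete separation, which 7.25% of all tested genes had with the HD group above and 7.01% with it below.

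**Figure D5:**
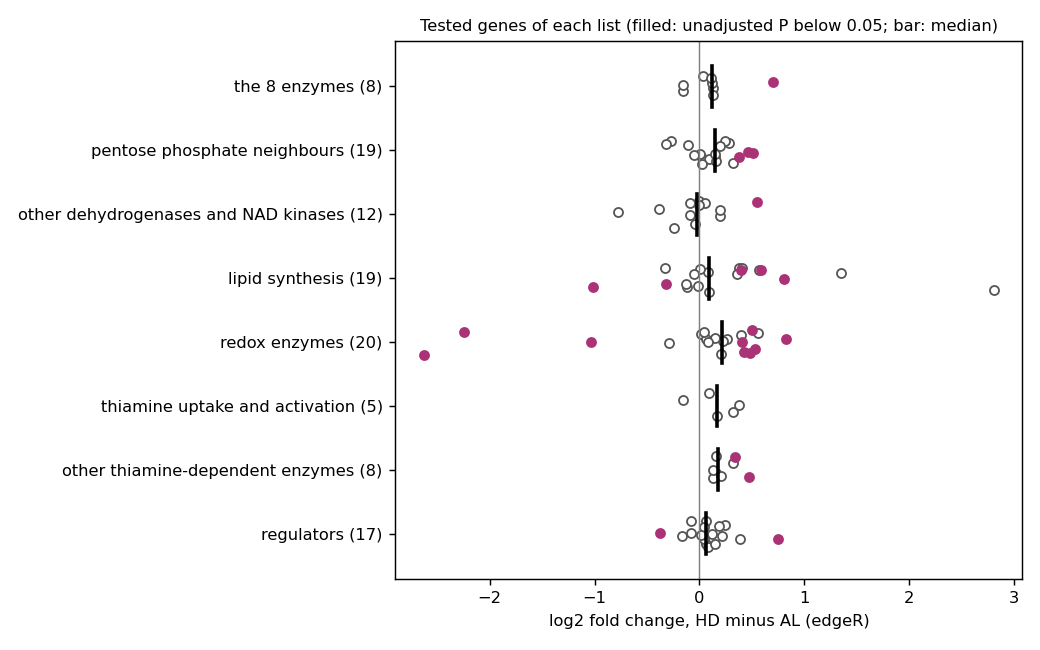
Log2 fold change between the HD and AL groups (horizontal axis) of every tested gene in each list, with the number of genes in parentheses; filled points have an unadjusted P value below 0.05 and the bars are medians. Tkt is the filled point among the 8 enzymes at 0.70, and the list medians lie between -0.027 and 0.21.

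Markers of other cells were summed over the tested genes of each list, and several lists differed in level between the groups. For comparison, 51.3% of all tested genes had a log2 fold change above 0. As single genes, 7.25% of all tested genes were completely separated with the HD group above, and 7.01% with it below. All 9 podocyte markers had log2 fold changes above 0, and their summed level was 94.4 to 173 CPM in AL rats and 241 to 539 CPM in HD rats. For 6 principal cell markers of the collecting duct the sums were 1381 to 1564 CPM and 1148 to 1347 CPM, with 1 marker above 0. All 7 tested leukocyte markers were below 0, with overlapping sums of 319 to 718 and 174 to 363 CPM. The sum of 10 proximal tubule markers was 16680 to 18560 CPM in AL rats and 17700 to 22300 CPM in HD rats, with 9 of 10 above 0. Of the distal convoluted tubule, 2 markers were tested and both were above 0, with sums of 63.0 to 131 CPM and 191 to 699 CPM. Intercalated cell markers summed to 827 to 981 CPM and 691 to 813 CPM, although 4 of 5 were above 0 (median log2 fold change 0.27). Sums of the thick ascending limb markers overlapped, at 5496 to 6244 and 3660 to 5935 CPM, with 0 of 5 above 0. The red cell markers were above 0 in 4 of 4, at 677 to 1028 and 980 to 1773 CPM. Of the inner medulla markers 1 of 6 was above 0 and the median log2 fold change was -0.83, although their sums were 3957 to 4510 and 4406 to 4901 CPM. This sum thus did not follow most of its markers, and Aqp1 is both in this list and in that of the proximal tubule. Endothelial markers had 1 of 6 above 0 and overlapping sums of 132 to 284 and 97.8 to 299 CPM. No marker in any of these lists or in that of fat was at 0 in all rats. The part of these differences in the level of Tkt was not tested.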

How the data were processed

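Kidney RNA of 6 rats was sequenced from poly(A)-selected TruSeq libraries with single-end reads, a library for each rat. The authors quantified transcripts with RSEM 1.1.15 at default parameters on University of California Santa Cruz gene definitions for rn5, and deposited estimated counts (expected counts), their posterior means, TPM, and a length-adjusted expression signal with the bounds of its interval, whose level is not given in the sources used here. Filters on reads before RSEM are not given in the sources used here.

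The estimated counts were summed per gene and rounded. Genes with at least 30 counts in at least 1 rat were tested with edgeR 4.0.16 in R 4.3.3 (quasi-likelihood test, TMM, diet as the only factor), with Benjamini-Hochberg adjustment over all tested genes. The standard error was the log2 fold change divided by the square root of F. The common biological coefficient of variation was 0.242. Exact permutation tests (scipy 1.17.1) used log2(CPM + 0.5), or log2 ratios of counts plus 0.5 (7 ratios, since Pgd was not analysed here). DESeq2 1.42.0, limma 3.58.1 on log2(TPM + 0.5) and the other alternatives are in the closing section. The fits were run on simulated data with differences larger than that of Tkt, so differences of the size seen in these enzymes were not examined there. Depth limits the precision, and totals ranged from 12499945 to 30466461.

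The genes and lists were chosen with earlier results of these data known. Named from each list were genes with an unadjusted *P* value below 0.05, at most 4 by smallest *P* value, or else the gene with the smallest, besides the 9 enzymes, their paralogs and the 5 profiles nearest to Tkt among genes with a mean of at least 10 CPM. A few genes that meet these criteria are not reported here. The lists of lipid synthesis and redox enzymes also hold genes that do not use NADPH themselves.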

Additional observations from a re-analysis of the deposited data

How the results depend on the processing

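Across 235 values of the 8 enzymes and the Tkt ratios under other settings, 223 kept their direction and side of the threshold or, for counts, their size. The median log2 fold change of the 8 enzymes was counted as kept within the SD between rats, 0.065. It was 0.12 in the main fit and 0.056 with TPM in limma, and ranged from 0.057 to 0.14 with each rat left out. The adjusted threshold was passed by 1 enzyme with DESeq2 (Tkt, log2 fold change 0.69) and by none with edgeR; the cause was not tested. The median log2 fold change of the 8 enzymes was 0.031 with library size alone, a scaling that moved the median of all genes from 0.0067 to -0.074. The log2 fold change of Pgls was -0.037 with library size alone and -0.014 with TPM in limma. With each rat left out in turn it ranged from -0.080 to 0.26 for Pgls, from -0.069 to 0.22 for Rpia, from -0.39 to 0.027 for Me1 and from -0.14 to 0.35 for Idh1, and it was below 0 without rat 71, 88 or 64 for Pgls, above 0 without rat 88 for Me1, below 0 without rat 88 for Rpia, and without rat 61 or 69 for Idh1. The sign held for the others, but the value moved by over 1.5 times, from 0.031 (without rat 71) to 0.27 (without rat 61) for Taldo1, from 0.024 (without rat 64) to 0.20 (without rat 67) for H6pd and from -0.27 (without rat 67) to -0.082 (without rat 64) for Rpe, whereas Tkt stayed between 0.63 and 0.79. Taldo1 was also at 0.055 without rat 67, and H6pd at 0.064 without rat 61. All 7 ratios of Tkt to the other enzymes kept their sign under every setting run, and the ratio to Idh1 ranged from 0.29 to 0.97 with each rat left out. The counts of Rpia and Rpe were the smallest and limit what could be seen there. No paired analysis was possible because the labels give no numbers shared between the groups.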

Other observations

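Over the 6 rats, the genes whose log2 CPM profile, centred on the mean, lay nearest to that of Tkt among 8168 genes were Tnip1, Aldh1l1, Gpd1, Mpst and Prr5. Their root mean square differences from Tkt were 0.081, 0.092, 0.10, 0.12 and 0.15 on the log2 scale. Gpd1, the cytosolic glycerol-3-phosphate dehydrogenase, was at 303, 243 and 231 CPM in rats 61, 71 and 88 and at 361, 376 and 390.5 CPM in rats 64, 67 and 69. Mpst, the mercaptopyruvate sulfurtransferase, was at 119, 97.9 and 115 CPM in the same AL rats and at 167, 149.6 and 171 CPM in the HD rats. Since the genes were chosen for a profile like that of Tkt, in which all HD rats lay above all AL rats, their own separation follows largely from the choice and is given as a description. Of the other 7 enzymes, Taldo1 was the nearest to Tkt, at 0.31 and rank 989, and Idh1 the farthest, at 0.55 and rank 7055. Within the pentose phosphate pathway Rpe was the farthest, at 0.47 and rank 6160.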
